A study of Mus musculus with 6 samples.

Results

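Nuclear genes of oxidative phosphorylation were followed in cytotoxic T cells (CD8-TC) of spleens from WT and Runx3-/- mice, after culture with IL-2. The members were all genes of the array, read from rows with exactly 1 gene symbol, whose symbol starts with Nduf, Uqcr or Atp5, or with Cox followed by a digit from 4 to 8, together with Sdha, Sdhb, Sdhc, Sdhd, Cyc1 and Cycs. This gave 91 of the 19938 genes that the array names by 1 symbol, each read from its brightest row. They comprised 41 genes of complex I (34 subunits and 7 assembly factors), 4 of complex II, 9 of complex III, 19 of complex IV, 17 of complex V and cytochrome c. Of these, 84 were bright enough to be tested, meaning that at least 1 array reached 4.26 on the log2 scale, the table's median value. The other 7 were dim on all 6 arrays.

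Oxidative phosphorylation takes place in the inner mitochondrial membrane. Complexes I and II pass electrons from NADH and succinate to ubiquinone, complex III hands them through cytochrome c to complex IV, which reduces oxygen, and complex V uses the resulting proton gradient to make ATP. Most subunits are encoded in the nucleus and imported, a few are encoded by mitochondrial DNA, and activated T cells are known to expand their mitochondria as they grow and divide.

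Runx3 belongs to the RUNX family of DNA-binding factors and is strongly expressed in killer lymphocytes. The study compared Runx3 +/+ with Runx3-/- cells to find genes that respond to its loss. Each genotype was represented by 3 mice with 1 array per mouse, and per the labels all mice were ICR males aged 6 weeks. All cells were selected on anti-CD8 beads, activated through the T cell receptor with anti-CD3 and anti-CD28 for 2 days and then grown for 4 days in IL-2 at 100 units per ml. Only Runx3-/- cells were also sorted by flow cytometry, which took out CD11c+ dendritic cells before culture and CD4+CD8- cells after it, so the sort and the genotype cannot be told apart. The sources used here do not say which exons of Runx3 the mutation disrupts.

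Several features of the 6 arrays bear on every value. Array medians lay between 4.15 and 4.35. Runx3 itself stood at 8.77, 8.26 and 9.16 in WT and at 8.91, 9.11 and 9.27 in the arrays labelled Runx3-/-, with overlap, so the arrays are called KO-labelled here. Xist was at 10.6 in WT1, which is labelled male, and at most at 3.40 on the other 5 arrays. The Y-linked genes went the opposite way. Eif2s3y was at 3.93 in WT1 and from 9.24 to 9.39 on the other 5 arrays. Kdm5d was at 3.68 in WT1 and from 5.92 to 7.02 elsewhere, and Uty at 3.91 and from 7.10 to 8.27. These values of WT1 go against its male label. WT2 and KO2 lay at the opposite ends of the first principal component, which held 49.6% of the variance. Genes of S phase and of G2/M were lowest in KO2, with mean deviations of -1.44 and -1.45 from their means over the 6 arrays, while KO1 was the highest for S phase (0.71) and KO3 for G2/M (0.72). Summed CD8 T cell markers ranged from 13.5 to 13.7 in WT and from 13.4 to 13.79 in KO-labelled arrays (log2). The sum of 4 CD4 T cell markers, of which 1 was below 4.26 on all arrays, ranged from 7.40 to 7.78 in WT and from 7.71 to 8.32 in KO-labelled arrays. Cd4 (difference 0.95, separate groups) and Zbtb7b (0.64) were higher by the study's rule (a 1.5-fold change and an unadjusted p below 0.05). Foxp3, the other tested marker of this list, went the other way (-0.32, overlapping groups). The sum of 7 NK cell markers ranged from 9.24 to 9.92 in WT and from 7.44 to 8.97 in KO-labelled arrays. It was carried mainly by Eomes, which CD8 T cells also express (9.74, 8.87 and 9.24 in WT, 8.69, 8.09 and 5.79 in KO-labelled arrays). Klrb1c, a further NK cell marker, read 4.34, 5.67 and 5.94 in WT and 3.74, 3.76 and 3.77 in KO-labelled arrays, a difference of -1.56. Eomes and Klrb1c were both lower by the study's rule, with separate groups. Klre1 differed by -0.23 and Itga2 by 0.11, and 3 of the 7 were below 4.26 on all arrays. Of the markers of other cells, 4 of 6 for B cells, 8 of 10 for dendritic cells, 7 of 8 for macrophages and 2 of 2 for erythroid cells were below 4.26 on all arrays. The B cell marker Cd79b, above it on all arrays, had separate groups with a difference of -0.93. The other tested markers of these cells had overlapping groups. Ighm (B cells) differed by 0.002 and Cd68 (macrophages) by -0.82. Of the dendritic cell markers, H2-Eb1 differed by 0.39 and Cd74 by 0.80, with Cd74 at 5.74 in KO1. The part of sex, cycling or other cells in the differences given here was not tested beyond these values and the fits that leave arrays out. In bulk cultures such as these, fewer cells of a type and less RNA per cell cannot be told apart.

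The start regions of 5 members are shown. Atp5e, Atp5k, Atp5l and Ndufb10 were 4 of the 6 members lower by the study's rule, and Cycs encodes the only mobile protein carrier of the chain. Ndufa1 and Ndufa2, the others lower by this rule, are not shown, and the window of Ndufa1 held 0 matches to the motifs searched. The printed windows are therefore not a fair sample of how often matches occur. The sequences are RefSeq promoters on build GRCm38.p6, each with 250 bases before and 50 after an annotated start, 5′ to 3′ on the gene's own strand, here the minus strand throughout. The windows are chr2:174464052-174464351 for Atp5e, chr5:108434350-108434649 for Atp5k, chr9:44920693-44920992 for Atp5l, chr17:24724374-24724673 for Ndufb10 and chr6:50566520-50566819 for Cycs. Capitals mark matches on either strand to GCGCANGCG, the core of the motif of NRF1 (a factor known for respiratory genes), to CCGGAAG, the ETS core read by GABP (another such factor), and to 4 hexamers that RUNX factors read. RUNX variant 1 is TGTGGT. RUNX variant 2 has the letters TGCGGT. RUNX variant 3 is spelled TGTGGC. RUNX variant 4 is given by TGCGGC. In the window of Atp5k an NRF1 match on each strand and a RUNX match overlap.
Atp5e: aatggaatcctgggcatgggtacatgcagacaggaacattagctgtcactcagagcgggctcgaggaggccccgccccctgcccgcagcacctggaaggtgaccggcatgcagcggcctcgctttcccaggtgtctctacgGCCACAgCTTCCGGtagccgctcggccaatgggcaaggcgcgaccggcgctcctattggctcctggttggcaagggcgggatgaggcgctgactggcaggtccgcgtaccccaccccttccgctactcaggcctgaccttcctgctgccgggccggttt
Atp5k: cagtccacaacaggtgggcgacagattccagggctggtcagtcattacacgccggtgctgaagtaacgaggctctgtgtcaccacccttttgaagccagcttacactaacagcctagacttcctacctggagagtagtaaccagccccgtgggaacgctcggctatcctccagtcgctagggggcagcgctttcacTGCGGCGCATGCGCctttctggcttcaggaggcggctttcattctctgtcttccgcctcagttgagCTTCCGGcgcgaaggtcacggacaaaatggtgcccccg
Atp5l: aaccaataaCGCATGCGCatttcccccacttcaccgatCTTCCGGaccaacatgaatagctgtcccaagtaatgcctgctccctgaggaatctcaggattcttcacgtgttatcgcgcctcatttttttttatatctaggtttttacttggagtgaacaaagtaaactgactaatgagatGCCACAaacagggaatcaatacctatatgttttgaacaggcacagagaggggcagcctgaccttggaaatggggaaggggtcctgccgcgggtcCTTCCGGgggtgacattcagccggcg
Ndufb10: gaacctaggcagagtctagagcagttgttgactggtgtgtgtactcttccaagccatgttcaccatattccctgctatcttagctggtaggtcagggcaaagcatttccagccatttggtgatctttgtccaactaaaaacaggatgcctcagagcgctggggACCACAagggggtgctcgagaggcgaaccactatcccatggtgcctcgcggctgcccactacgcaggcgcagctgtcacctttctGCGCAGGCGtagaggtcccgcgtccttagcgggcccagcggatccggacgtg
Cycs: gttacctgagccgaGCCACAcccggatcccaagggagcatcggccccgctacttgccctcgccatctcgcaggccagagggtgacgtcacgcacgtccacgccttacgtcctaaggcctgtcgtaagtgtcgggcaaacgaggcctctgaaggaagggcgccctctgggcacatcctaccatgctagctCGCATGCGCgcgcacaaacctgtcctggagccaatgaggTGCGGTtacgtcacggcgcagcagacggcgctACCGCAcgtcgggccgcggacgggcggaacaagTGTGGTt

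The plain result was a small shift in 1 direction that no member carried past the adjusted threshold. Of 84 tested members, 80 were lower on average in KO-labelled than in WT arrays, against 52% of all 10021 tested genes. The median log2 difference of the members was -0.35, and that of all tested genes was -0.01. After quantile normalization of the columns the medians were -0.37 and -0.06, and after median normalization -0.42 and -0.09, so the members lay below the array-wide shift under each scaling. No member passed an adjusted p of 0.05 in limma, where 0.629% of all tested genes passed, and the smallest adjusted p among members was 0.215, for Ndufb10. At an unadjusted p of 0.05, 13 members were lower and 0 higher, or 15.5% of those tested, beside 7.14% of all genes that were lower at this level. At the study's threshold, which adds a 1.5-fold change, 6 members were lower (7.14%) and 0 higher, while 4.33% of all tested genes were lower and 3.97% higher. The 3 KO-labelled arrays all lay below the 3 WT arrays for 20 members, and all above for 0. For all tested genes these shares were 10.9% below and 11.6% above, and for the members the share below was 23.8%. Because members move together from array to array, these counts are not counts of independent events.

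**Figure D1:**
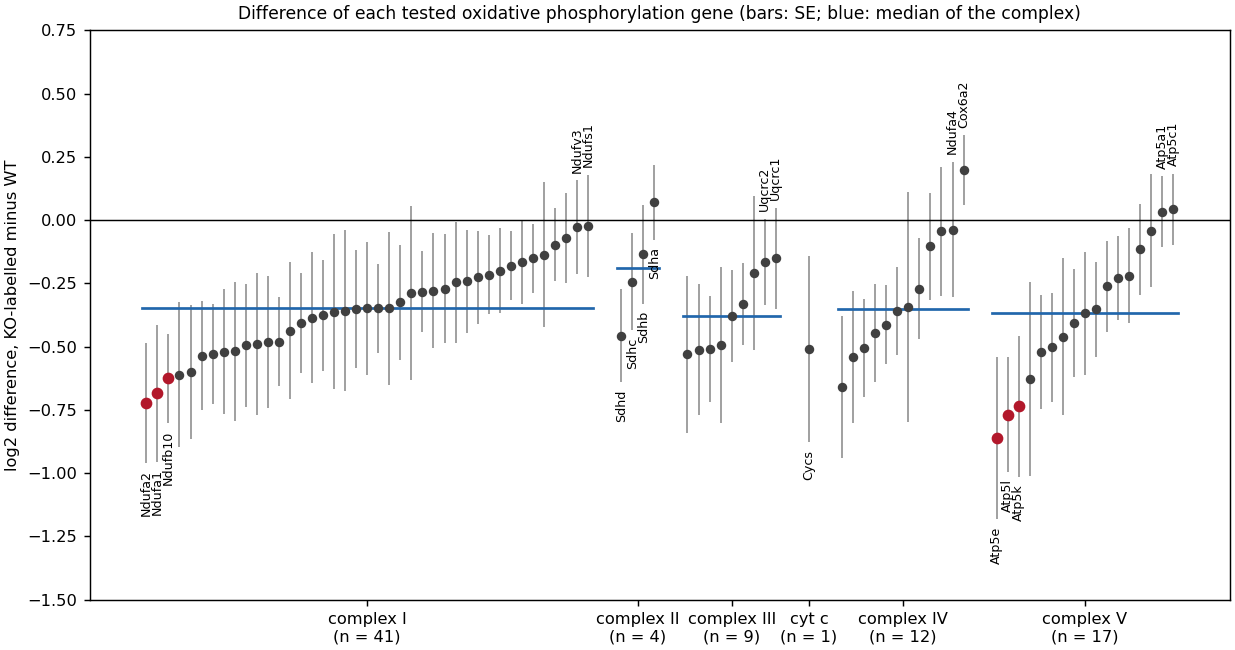
The vertical axis gives the log2 difference (KO-labelled minus WT, 3 arrays each) of each of the 84 tested members, sorted within its complex, with the moderated standard error as a bar. Blue lines are the medians per complex, from -0.19 for complex II to -0.38 for complex III, and red points are the 6 members past the study's threshold, none of which passed the adjusted threshold.

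The shift was not shared evenly by the arrays of a group. Averaged over the 84 tested members, the deviation from each gene's mean was 0.08 in WT1, 0.36 in WT2 and 0.07 in WT3, and 0.12 in KO1, -0.49 in KO2 and -0.15 in KO3. KO1 therefore lay above WT1 and WT3, and the distance between the groups came largely from a high WT2 and a low KO2. KO2 was the lowest of the 6 arrays for 71 members, which compares with 34.7% of all tested genes. WT2 was the highest for 57 members, which compares with 23.6% of all tested genes. The spread between replicates was also uneven, with a median SD of 0.20 in WT and 0.342 in KO-labelled arrays, and the KO-labelled SD was the larger for 70 of 84 members (83.3%, beside 54.4% of all tested genes). When KO2 was left out, the median of the members was -0.18 and 0 passed the study's threshold. When both WT2 and KO2 were left out, the median was -0.08, 57 of 83 tested members were below 0 and 1 passed the study's threshold, Atp5e. Leaving out KO1 moved the values the other way, to a median of -0.49 with 23 members past that threshold. Without WT2 the median was -0.22, with 3 members past it. Without WT3 it was -0.40, also with 3. Without WT1, the array with Xist, the median was -0.41 and 8 members passed that threshold. With the mean of the G2/M genes as a covariate the median was -0.34 and 9 members passed it. Of all tested genes, 7.44% were lower at this threshold without KO1, and from 3.06% (without KO2) to 4.66% (with the covariate) in the other fits of this paragraph.

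**Figure D2:**
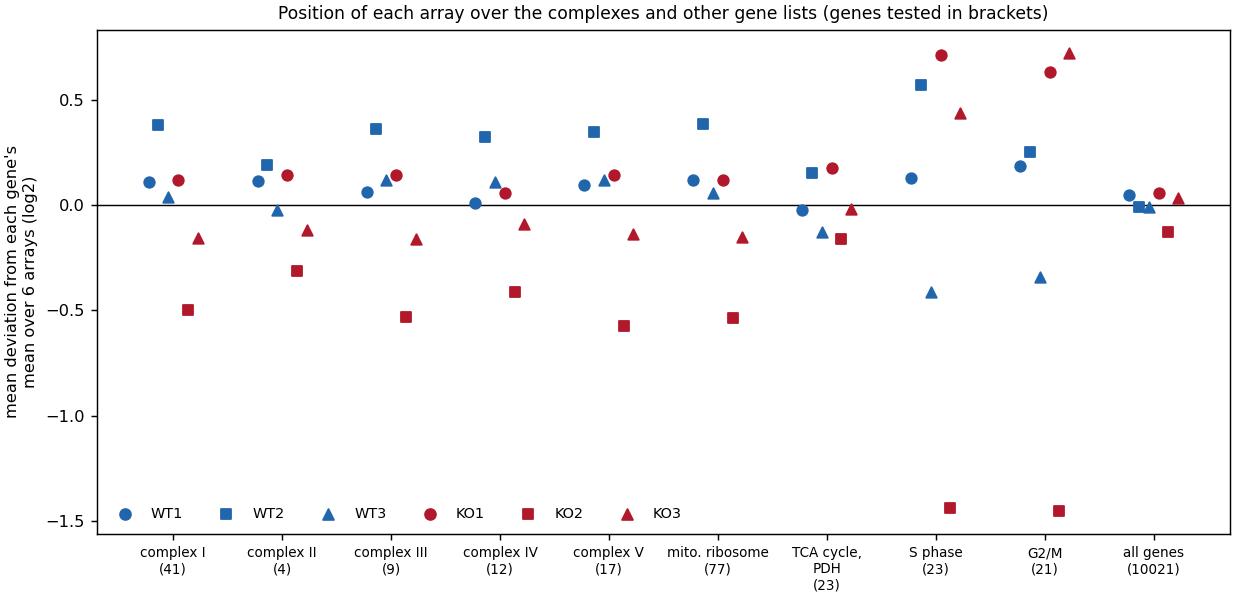
Each point is 1 array's mean deviation (log2) from the genes' means over 6 arrays, for each complex and for other gene lists, with WT in blue, KO-labelled in red and replicates 1, 2 and 3 as circles, squares and triangles. KO2 is lowest and WT2 highest for each of the 5 complexes, and KO1 lies above WT3 for 4 of the 5; KO2 is also lowest for the S phase and G2/M lists.

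Complex I, the NADH dehydrogenase that begins the chain, had 41 tested members, all with a difference below 0 and with a median of -0.35. The 3 members past the study's threshold were Ndufa2, Ndufa1 and Ndufb10, all accessory subunits that surround the catalytic core. Ndufa2 stood at 7.78, 7.92 and 8.12 in WT1 to WT3 and at 7.63, 6.75 and 7.28 in KO1 to KO3. The groups did not overlap, with KO1 just under the lowest WT array and KO2 far below it, and the difference was -0.72 (SE 0.24, limma adjusted p = 0.267). Ndufa1, a small membrane subunit encoded on the X chromosome, read 8.47, 8.78 and 8.71 in WT and 8.42, 7.38 and 8.11 in KO-labelled arrays. Here too KO1 was next to WT1, and the difference was -0.68 (SE 0.27, adjusted p = 0.324), or -0.39 without KO2. Ndufb10, a subunit of the membrane arm, read 6.24, 6.59 and 6.60 in WT and 6.08, 5.64 and 5.83 in KO-labelled arrays. Its KO-labelled arrays were close together, with an SD of 0.219 beside 0.205 in WT, and the difference was -0.63 (SE 0.18), or 1.54-fold lower.

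Within complex I the core subunits, most of which bind the flavin or iron-sulfur clusters, had a median closer to 0 than the accessory ones. The 6 core members had a median of -0.20, the 28 accessory members one of -0.35 and the 7 assembly factors one of -0.38. Separate groups, lower, were found for 7 accessory members (25%) and 0 core members, beside 10.9% of all tested genes. With only 6 core genes, a count of 0 is near that share and cannot be read as a result about the core. Ndufs1, the largest core subunit, showed the smallest difference of the complex, -0.02 (SE 0.20), and Ndufv3, an accessory subunit, was next with -0.03 (SE 0.19). Ndufv1, the flavin-binding core subunit, went furthest among the core genes with -0.48 (SE 0.26). Among the assembly factors, which help build the complex and are not part of it, Ndufaf5 was lower on all 3 KO-labelled arrays (5.15, 5.10 and 4.90) than on any WT array (5.70, 5.84 and 5.20), with a difference of -0.53 (SE 0.20, adjusted p = 0.308). The difference between these roles was not tested.

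Complex II, which is succinate dehydrogenase and also a step of the TCA cycle, had the median nearest 0, -0.19 over 4 genes. The catalytic subunits differed little. Sdha, the flavoprotein, read 9.53, 9.42 and 9.28 in WT and 9.54, 9.59 and 9.30 in KO-labelled arrays, a difference of 0.07 (SE 0.15), and was 1 of 4 members above 0. KO3 lay near the bottom of the WT range and KO1 and KO2 above it, so that KO2, low for most members, was the highest array for Sdha. Sdhb, the iron-sulfur subunit, differed by -0.13 (SE 0.20), and by 0.02 without KO2. The membrane anchors were lower. Sdhd read 9.08, 9.22 and 9.05 in WT and 8.89, 8.31 and 8.78 in KO-labelled arrays. These groups did not overlap, and the difference was -0.46 (SE 0.18, adjusted p = 0.332). Sdhc, the other anchor, differed by -0.24 (SE 0.19) with overlapping groups.

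Complex III, the cytochrome bc1 complex, had 9 tested members, all below 0, with a median of -0.38. Uqcr11 and Uqcrq, small accessory subunits, had the largest differences, -0.53 (SE 0.31) and -0.51 (SE 0.26). Uqcr11 read 6.52, 6.93 and 6.78 in WT and 6.69, 5.51 and 6.44 in KO-labelled arrays, so KO2 alone stood far from the rest and KO1 lay within the WT range. Uqcr10, another small subunit, had an unadjusted p under 0.05 with a difference of -0.51 (SE 0.21, adjusted p = 0.342). Uqcrh, the hinge protein, and Uqcrfs1, the Rieske iron-sulfur protein, were the members with separate groups, with differences of -0.38 (SE 0.18) and -0.33 (SE 0.16). The 5 accessory subunits had a median of -0.51 and the 4 core members one of -0.25. Uqcrc1 and Uqcrc2, the large core proteins that face the matrix, were nearest 0, with -0.15 (SE 0.20) and -0.17 (SE 0.17).

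The cytochromes c themselves varied strongly between mice. Cyc1, the haem-bearing subunit of complex III, read 8.33, 8.99 and 8.22 in WT and 8.54, 7.54 and 7.97 in KO-labelled arrays, a difference of -0.49 (SE 0.31) with overlap. Cycs, the soluble carrier, read 8.66, 9.90 and 9.13 in WT and 9.29, 8.45 and 8.42 in KO-labelled arrays, a difference of -0.51 (SE 0.37, adjusted p = 0.551). WT2 was by far the highest for Cycs, and KO1 lay above both other WT arrays. A second bright row of Cycs gave -0.53, and a further row, dim on all arrays, gave 0.08.

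Complex IV, cytochrome c oxidase, had 19 members, of which 12 were tested, with a median of -0.35 and 11 below 0. The 10 subunits used in all tissues, Ndufa4 included, had a median of -0.39. Cox5a and Cox6a1 had the largest differences. Cox5a, a matrix subunit, read 7.95, 8.47 and 8.30 in WT and 8.03, 7.01 and 7.71 in KO-labelled arrays, a difference of -0.66 (SE 0.28, adjusted p = 0.357). KO1 lay above WT1, so the groups overlapped despite the size of the difference. Cox6a1 differed by -0.54 (SE 0.26, adjusted p = 0.402), with KO1 again inside the WT range. Smaller differences came with separate groups in Cox6b1 (-0.51, SE 0.19), Cox4i1 (-0.41, SE 0.16) and Cox8a (-0.36, SE 0.17). Cox4i1, the widely expressed form of subunit IV, read 10.1, 9.99 and 10.2 in WT and 9.89, 9.49 and 9.64 in KO-labelled arrays, with an adjusted p of 0.312.

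Many complex IV subunits have tissue isoforms, and these data show which were present. For the lung and hypoxia form Cox4i2, the testis forms Cox6b2, Cox7b2 and Cox8c, the muscle forms Cox7a1 and Cox8b and the hypoxia-induced Ndufa4l2, every value of every array was below 4.26. The widely used partners Cox4i1, Cox6b1, Cox7b, Cox7a2, Cox8a and Ndufa4 were above 4.26 on all 6 arrays, so neither genotype showed a change to the tissue forms above this level. Cox6a2, the heart and muscle form, reached 4.26 on KO2 only (4.42), where its other values ran from 4.01 to 4.22, so its difference of 0.20 (SE 0.14) lies at the edge of what was tested. Cox7a2 differed by -0.45 (SE 0.19). Cox7a2l, which is known as a factor that joins complexes III and IV into supercomplexes, behaved differently across arrays, at 10.1, 9.90 and 10.4 in WT and 9.72, 10.6 and 9.95 in KO-labelled arrays. KO2 was the highest array for it, and its difference was -0.04 (SE 0.25). Ndufa4, once counted with complex I, differed by -0.04 (SE 0.27), and by 0.11 without KO2.

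**Figure D3:**
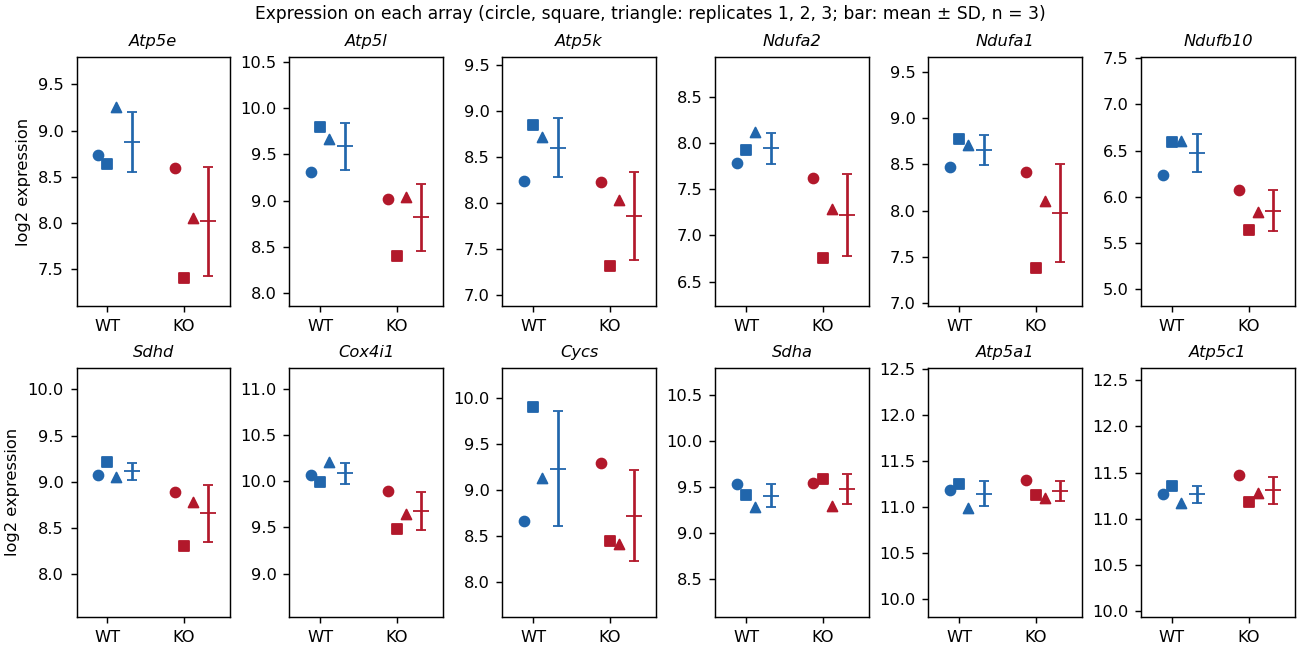
Each panel gives the log2 expression of 1 member on the 6 arrays, with WT in blue, KO-labelled in red, replicates 1, 2 and 3 as circles, squares and triangles, and the mean ± SD (n = 3) as a bar; all panels span the same log2 range and levels are not compared between panels. The upper row holds the 6 members past the study's threshold, where KO2 is the lowest array, and the lower row holds Sdhd and Cox4i1 with separate groups, Cycs with a wide spread, and Sdha, Atp5a1 and Atp5c1 with differences of 0.07, 0.03 and 0.04.

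Complex V, the ATP synthase, held both the largest differences of the set and some of the smallest. Its 17 members had a median of -0.37, and 6 had separate groups, all lower (35.3%, beside 10.9% of all tested genes). Atp5e, the epsilon subunit of the central stalk, read 8.74, 8.64 and 9.25 in WT and 8.59, 7.40 and 8.05 in KO-labelled arrays. KO1 lay just below WT2, KO2 was 1 log2 unit or more below every WT array, and the difference was -0.86 (SE 0.32, adjusted p = 0.306), or 1.82-fold lower. Atp5l, subunit g of the membrane part, read 9.30, 9.80 and 9.66 in WT and 9.01, 8.40 and 9.04 in KO-labelled arrays. All 3 KO-labelled arrays were below the WT range, with a difference of -0.77 (SE 0.23, adjusted p = 0.229). Its 6 rows, which may include near-identical copies of the gene, gave differences from -0.80 to -0.64. Atp5k, subunit e of the same part, read 8.24, 8.85 and 8.72 in WT and 8.23, 7.32 and 8.04 in KO-labelled arrays. KO1 and WT1 were nearly equal for it, and its difference was -0.74 (SE 0.28, adjusted p = 0.311).

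Other subunits of complex V lay near 0. Atp5a1, the alpha subunit, read 11.2, 11.3 and 10.99 in WT and 11.3, 11.1 and 11.1 in KO-labelled arrays, a difference of 0.03 (SE 0.14). Atp5c1, the gamma subunit of the central stalk, differed by 0.04 (SE 0.14), and Atp5b, the catalytic beta subunit, by -0.12 (SE 0.18). For these 3 genes the groups overlapped, and Atp5a1 and Atp5c1 turned to -0.04 and -0.03 under median normalization. The delta subunit Atp5d, part of the central stalk, was lower on all KO-labelled arrays, with a difference of -0.52 (SE 0.22, adjusted p = 0.359). The 9 subunits of the peripheral stalk and membrane part had a median of -0.41, all below 0, and ranged from -0.77 (Atp5l) to -0.04 (Atp5j). The c ring, through which protons pass, is encoded by 3 genes for the same mature protein. Atp5g1 read 7.12, 7.78 and 7.14 in WT and 7.39, 5.92 and 6.84 in KO-labelled arrays, a difference of -0.63 (SE 0.38) with KO2 more than 1 log2 unit below every WT array and KO1 inside the WT range. Atp5g3 differed by -0.37 (SE 0.24) and Atp5g2 by -0.26 (SE 0.18), the last with all KO-labelled arrays below the narrow WT range of 10.4 to 10.5.

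Other genes of the respiratory pathway were read from the same fit, by lists chosen with earlier results of these data known. None of their members passed an adjusted p of 0.05 in limma, where 0.629% of all tested genes did. With array weights Pdk1, Polg, Myc, Mrpl34 and Mrpl52 passed it, but so did 5.46% of all tested genes. WT1, the array with Xist, had the largest weight in that fit. At an unadjusted p of 0.05, 14 genes of the mitochondrial ribosome, 6 assembly factors and 5 import genes were lower (18.2%, 16.7% and 17.2% of those tested, beside 7.14% of all genes) and 0 of these lists higher. The mitochondrial ribosome, which makes the mitochondrially encoded subunits, resembled the members in its values, with 76 of 77 tested genes below 0 and a median of -0.37, and 6 at the study's threshold, all lower (7.79%, beside 4.33% of all genes). Of these, Mrps16 read 7.29, 7.54 and 7.71 in WT and 6.90, 6.74 and 6.85 in KO-labelled arrays, a difference of -0.68 (SE 0.15, adjusted p = 0.134). Its KO-labelled arrays were close together and all below WT, and the same separation held for Mrpl52 (-0.82, SE 0.23) and Mrpl34 (-0.72, SE 0.18). The median of this list was -0.19 without KO2 and -0.071 without WT2 and KO2.

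Proteins that serve the complexes had smaller medians. Of 36 tested assembly factors of complexes I to V outside the member list, 29 were below 0, with a median of -0.16 and 3 lower at the study's threshold (8.33%, beside 4.33%). Without WT2 and KO2, 20 of 36 were below 0 and the median was -0.037. The 3 genes were Cox17, the copper chaperone of complex IV (-0.70, SE 0.25), Slirp, which stabilises mitochondrial mRNAs (-0.61, SE 0.23), and Sdhaf4, an assembly factor of complex II (-0.60, SE 0.20). Mitochondrial import had 26 of 29 genes below 0 with a median of -0.25 (-0.15 without WT2, and -0.076 with 16 of 29 below 0 without WT2 and KO2), and Tomm5 and Tomm22 of the outer membrane translocase both differed by -0.60 (SE 0.19 and 0.25). Ubiquinone synthesis and the other enzymes that reduce ubiquinone had all 14 tested genes below 0 with a median of -0.31 (-0.18 without WT2, -0.20 without KO2, and -0.11 with 11 of 14 below 0 without both). The smallest p was that of Coq3 (-0.57, SE 0.23), a methyltransferase of ubiquinone synthesis, and Gpd2 (-0.66) and Etfb (-0.62) were further below 0 with overlapping groups. Atpif1, the inhibitor of ATP hydrolysis by complex V, differed by -0.35 (SE 0.31), and by 0.10 without WT2 and KO2. Of 8 mitochondrial antioxidant enzymes 7 were below 0, with a median of -0.23. The smallest p there was that of Txn2, mitochondrial thioredoxin (-0.32, SE 0.15).

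The lists that feed the chain or make its RNA had medians nearer 0. The TCA cycle and pyruvate dehydrogenase list had 16 of 23 genes below 0, with a median of -0.15, which moved to -0.24 when WT3 was left out, to -0.095 when WT2 was, to -0.014 when KO2 was and to 0.046 when both WT2 and KO2 were. Its 1 gene at the study's threshold was higher. Pdk1, the kinase that inhibits pyruvate dehydrogenase, read 6.19, 7.29 and 7.33 in WT and 8.11, 9.45 and 9.12 in KO-labelled arrays. The groups did not overlap, and the difference was 1.96 (SE 0.43, adjusted p = 0.126). Mitochondrial DNA replication and transcription had a median of -0.03 over 14 genes. Polg, the catalytic subunit of the mitochondrial DNA polymerase, read 6.13, 5.64 and 5.91 in WT and 6.77, 6.81 and 6.96 in KO-labelled arrays, with a difference of 0.95 (SE 0.17, adjusted p = 0.0686). Its accessory subunit Polg2 was also higher on all KO-labelled arrays (0.60, SE 0.18, adjusted p = 0.245). The mitochondrially encoded genes were measured by rows for COX2 and ND3, with differences of 0.22 (SE 0.15) and 0.03 (SE 0.13), so neither mitochondrial transcript lay below WT on average while 80 nuclear members did. KO2, lowest for most nuclear members, was the highest array for COX2.

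Among 15 tested regulators of respiratory genes the median was 0.04, with 7 below 0. Myc, known to drive growth and mitochondrial genes, was the only one at the study's threshold. It read 10.2, 10.1 and 10.2 in WT and 9.61, 8.90 and 9.17 in KO-labelled arrays, a difference of -0.93 (SE 0.20, adjusted p = 0.118) with separate groups. KO2 was the lowest array and KO1 the highest of the KO-labelled arrays, as in the members' average. WT2, the highest array for most members, was the lowest WT array for Myc. A link between Myc and the members was not tested. Glycolysis genes, given for context, had a median of 0.02 over 15 genes.

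The start regions were compared by the motifs they hold. Promoters of 74 of the 91 members were matched by Entrez gene ID, in 79 windows of 300 bases, and are set beside 32851 RefSeq windows of all genes and those of the tested genes. The NRF1 core GCGCANGCG was in 29.1% of the member windows, in 6.25% of all windows and in 14.4% of those of tested genes. The ETS core CCGGAAG was in 22.8%, beside 8.86% and 19.3%. The YY1 motif AAGATGGCG was in 8.86%, beside 1.40% and 3.31%. The ERR motif TCAAGGTCA was in 2.53%, beside 0.423% and 0.286%. At least 1 of the 4 RUNX hexamers was in 50.6% of member windows and in 45.2% of all windows, so short motifs of this kind were common in either set. Singly, RUNX variant 1 was in 12.7% of member windows, beside 16.8% of all windows and 13% of those of tested genes. Variant 2 was in 12.7%, beside 6.45% and 9.53%. Variant 3 was in 19%, beside 18.9% and 18.4%, and variant 4 in 12.7%, beside 12.4% and 21.3%. The median GC content was 58.3% in member windows, 52.7% in all and 60.7% in those of tested genes.

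The median log2 difference was -0.36 for the 22 tested members with an NRF1 match and -0.36 for the 48 without one. It was -0.42 for the 18 with an ETS match and -0.35 for the 52 without, and for YY1 it was -0.25 (7 members) and -0.37 (63). For RUNX variant 1 the median was -0.49 in 9 members with a match and -0.35 in 61 without, and for RUNX variant 2 it was -0.46 in 8 and -0.35 in 62. For RUNX variant 3 it was -0.37 in 14 and -0.35 in 56, and for RUNX variant 4 -0.37 in 10 and -0.35 in 60. The 2 members with an ERR match had a median of -0.41, and the 68 without had -0.35. None of these differences was tested. Of the 5 windows printed, Atp5k, Atp5l, Ndufb10 and Cycs hold an NRF1 match, and Atp5e, Atp5k and Atp5l an ETS match, while the window of Ndufa1, also at the study's threshold, holds 0 matches to any motif searched. A match is a description of the letters and not a site or a cause, and binding was not measured on these arrays.

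**Figure D4:**
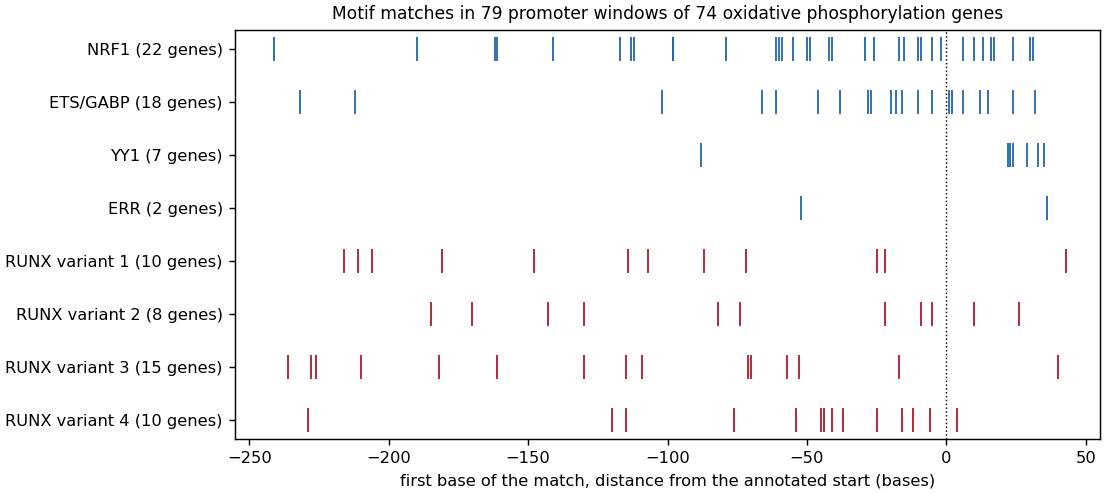
Each tick is the first base of a motif match on either strand, by its distance in bases from the annotated start (dotted line), in 79 windows of 74 members and RUNX variants as numbered in the text. NRF1, ETS and YY1 matches (22, 18 and 7 genes) lie mostly near the start, and RUNX matches are spread over the window.

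**Figure D5:**
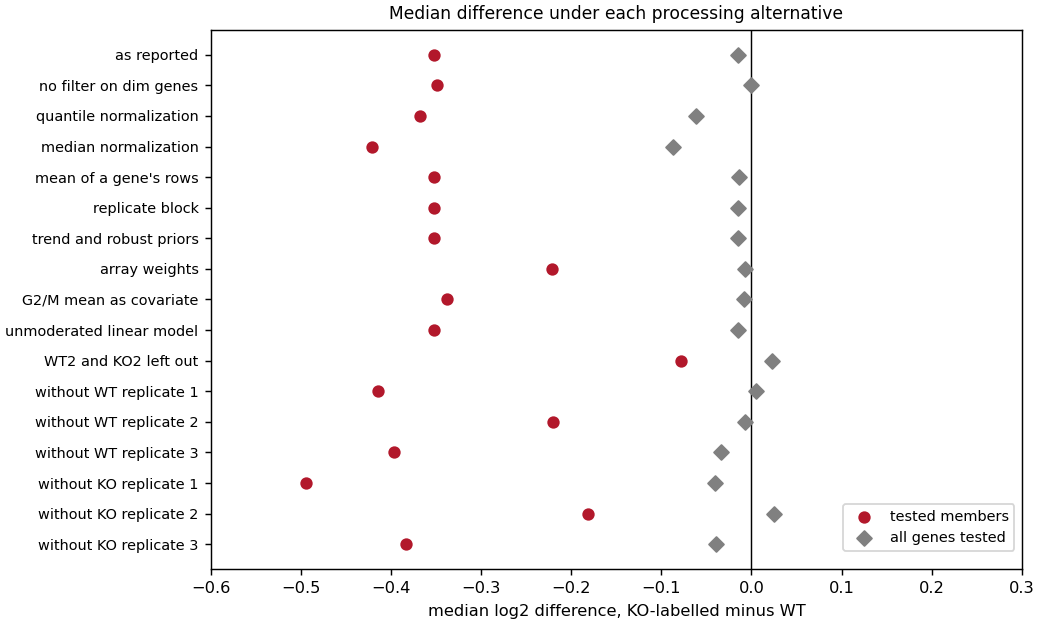
The horizontal axis gives the median log2 difference (KO-labelled minus WT) of the tested members (red circles) and of all tested genes (grey diamonds) as reported and under 16 alternatives. The members' median is below that of all genes in each, and it lies nearest 0 with WT2 and KO2 left out (-0.08) and furthest from 0 without KO replicate 1 (-0.49).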

How the data were processed

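Total RNA of cultured CD8-TC from 3 WT and 3 Runx3-/- mice was hybridised to Affymetrix mouse gene ST 1.0 arrays. The authors deposited log2 values per transcript cluster, made by RMA with GC correction in Partek Genomics Suite, with 1 column per array and no pooling; their versions were not given in the sources used here. Since RMA compresses low values, differences of dim genes are understated, and the number of arrays limits the precision.

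Rows with 1 gene symbol in the platform table (21789 of 35399) gave 19938 genes, each read from its brightest row, and 18 members had more than 1 row. Genes with at least 1 value of 4.26 or more, the table median, were tested (10021 genes). KO-labelled minus WT was fitted with limma 3.58.1 in R 4.3.3 (lmFit, eBayes, two-sided, no covariate) with Benjamini-Hochberg adjustment over these genes. SE are moderated. The fit was tested on simulated data. Mice are the replicates. A further count took genes with at least a 1.5-fold change and an unadjusted p below 0.05, which is the study's threshold. Lists are described by counts and medians, with no list test. The members, lists, tests and alternatives were chosen with earlier results of these data known.

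Named genes are members past either threshold, the 2 furthest above and the 2 furthest below 0 in each complex, complex II, cytochromes c, isoform sets, up to 3 genes of each other list at the study's threshold or else that with the smallest p, and Runx3. Xist, Eif2s3y, Kdm5d, Uty, Cd4, Zbtb7b, Foxp3, Cd79b, Ighm, H2-Eb1, Cd74, Cd68, Eomes, Klrb1c, Klre1, Itga2, Gpd2, Etfb, Atp5b, Atp5d, Atp5j, Cox7b, Cox7b2, Ndufaf5, Ndufs1, Ndufv1, Ndufv3, Uqcr10, Uqcrc1, Uqcrc2, Uqcrfs1, Uqcrh and ND3 were chosen after their values were seen. Promoter sequences are from RefSeq (GRCm38.p6) and were searched on both strands. Alternatives covered the filter, normalization, gene rows, replicate block, priors, array weights, a covariate, an unmoderated model and arrays left out. Figures were drawn with matplotlib 3.10.9.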

Additional observations from a re-analysis of the deposited data

How the results depend on the processing

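Under 16 alternatives 0 members passed the adjusted threshold, in limma or in the unmoderated linear model. In the unmoderated model 0 of all 10021 tested genes passed, so the 0 members there cannot be read as a result about the members. There, 4 members had an unadjusted p under 0.05, all lower, and 5.76% of all tested genes were lower at this level. In the limma alternatives the share of all tested genes that passed ran from 0.00998% (replicate block) to 5.46% (array weights). The count at the study's threshold was 3 with array weights, 2 in the unmoderated model and 1 with WT2 and KO2 left out, where the median was -0.078. The shares of all tested genes lower at this threshold in these fits were 4.99%, 2.66% and 3.82%. Leaving out 1 array gave 0 (without KO2) to 23 (without KO1) members at that threshold, 20 to 62 (without KO1) with separate groups, 31 without WT3, and medians from -0.49 to -0.18. Of all tested genes, 3.06% without KO2 and 7.44% without KO1 were lower at that threshold, beside 4.33% with all 6 arrays. The share of all tested genes with separate groups, lower, also rose, from 10.9% with all 6 arrays to 21.9% without KO1, 16.6% without WT3 and 14% without KO2. Replicate numbers did not pair the arrays (correlations of -0.13, -0.37 and -0.13 between same-numbered arrays). With the replicate block, 0 members passed the adjusted threshold, where only 1 of all 10021 tested genes did. The study's threshold was passed by 4 members, beside 3.85% of all tested genes that were lower at it, and the members' median stayed at -0.35. Of 45 named genes tested, 37 kept their direction under every alternative. Sdha was -0.084 and Atp5a1 -0.0022 with array weights. With median normalization Atp5a1 was -0.037 and Atp5c1 -0.027. With WT2 and KO2 left out Sdhb was 0.11, Atp5g3 7e-04, Ndufa4 0.21 and Atpif1 0.099. With 1 array left out, Atp5a1 ranged from -0.044 (without WT3) to 0.087 (without WT2), being also -0.029 without KO1. Atp5c1 had its lowest value, -0.0405, without KO1 and was -0.0062 without WT3. Sdhb ranged from -0.30 (without KO1) to 0.023 (without KO2). Cox7a2l ranged from -0.30 (without KO2) to 0.14 (without KO1), with 0.078 without WT3 and 0.026 without KO3. Ndufa4 ranged from -0.33 (without KO1) to 0.11 (without KO2 and without KO3), with 0.060 without WT2. Atpif1 ranged from -0.60 (without KO1) to 1e-04 (without KO2). With array weights, the WT side rested mostly on WT1 (weight 3.099, beside 0.381 for WT2 and 1.165 for WT3), the array with Xist. KO3 had the largest weight of the KO-labelled arrays. In this fit 5.46% of all tested genes passed the adjusted threshold in limma. The named genes outside the members among them were Pdk1 (0.0163), Polg (0.0141), Myc (0.0141), Mrpl34 (0.0275) and Mrpl52 (0.0353). The cause of these movements was not tested beyond the arrays left out. Signal close to 4.26 limits what can be read from the tissue isoforms of complex IV.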

Other observations

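The array holds further rows of respiratory genes that name several genes at once and so were not members. The row shared by Ndufs5 and its copy Ndufs5-ps differed by -0.73 (KO-labelled minus WT, log2), reading 7.001, 7.65 and 7.29 in WT and 7.03, 6.18 and 6.53 in KO-labelled arrays, with KO1 inside the WT range. Rows shared by Ndufb4 and Ndufb4b differed by -0.54 and -0.53. The 3 rows shared by Cox7c and Gm12338 differed by -0.25, -0.24 and -0.23. These rows were not tested, and for all of them the groups overlapped.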
